A study of Mus musculus with 138 samples.

Results

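The 10 imprinted growth genes Mest, Dlk1, Meg3, H19, Peg3, Plagl1, Cdkn1c, Gnas, Grb10 and Ndn were followed by name, whatever their values, through bulk RNA-seq of laser-captured calvarial sutures and single-cell RNA-seq of the coronal suture. The files list 55487 genes, of which 19768 passed the filter on low counts, and all 10 members were among them. Wild-type C57BL/6J mouse embryos were collected at E16.5 and E18.5, and no sample carried a mutant allele or received a treatment. From each suture the suture mesenchyme (SM), the soft tissue between the bones, was captured apart from the osteogenic fronts (OF), the growing bone edges. The coronal suture gave SM, frontal OF and parietal OF, the frontal suture gave SM and frontal OF, the lambdoid suture gave SM, interparietal OF and parietal OF, and the sagittal suture gave SM and parietal OF. These 20 groups held 5 libraries each, 100 in all. A further 18 second libraries of the coronal suture, 16 libraries of complete sutures at E18.5 and 4 single-cell libraries, 2 per age, brought the series to 138 samples. The embryos were inbred, so the parental copies cannot be told apart and all values are the sum of both.

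Genomic imprinting leaves a small set of mammalian genes expressed from the copy inherited from the mother or from the father, and many of these genes set how fast fetal tissues grow. Paternally expressed members such as Mest, Dlk1, Peg3 and Plagl1 are found in immature mesenchyme, while Cdkn1c, Grb10 and H19 are maternally expressed and known as brakes on growth. The genes are known for a shared pattern of high expression in the fetus that fades after birth, and Plagl1, a zinc finger transcription factor, is known to act on others of the group.

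Total counts of the first libraries ran from 7305627 to 34518477 (median 14244957), with the coronal libraries the deepest (20133332 to 34518477). The coronal first libraries at E16.5 nevertheless detected only 17274 to 22824 genes, against 25118 to 28397 in the frontal suture at E16.5. Every second coronal library at E16.5 detected more genes than its first, such as 21200 against 17274 in frontal OF of replicate 3. The part of this in the coronal results below was not tested. Of 17 litters, 3 gave more than 1 suture, and levels are described but not tested between sutures. Osteoblast markers marked the captured regions: 11 of 12 were lower in SM than in OF and none was higher, with a median summed level of 14958 CPM in SM against 28517 CPM in OF at E16.5. CPM are counts scaled to library size after TMM normalisation. Of 6 markers of ectocranial mesenchyme, the layer over the bones, 5 were higher in SM and 1 was lower. A frontal OF library of the frontal suture, replicate 5 at E18.5, stood apart from its group. It detected 20627 genes, the fewest of the 10 frontal libraries at E18.5. Its ectocranial markers summed to 4335 CPM against 1485 to 2090 CPM in the other 4 libraries, within the range of the frontal SM libraries (3785 to 4985 CPM). Its suture mesenchyme markers (1385 CPM) were also above the other OF (914.5 to 966 CPM) and SM libraries (998 to 1259 CPM). Its pericyte markers (415 CPM) were above the other OF (271 to 356 CPM) and within the SM range (405 to 695 CPM). Its osteoblast (45011 CPM), proliferation (2227 CPM) and hypodermis markers (590.0 CPM) were the highest of the 10 frontal libraries at E18.5, and its macrophage markers (238 CPM) lay below all SM libraries (465 to 585 CPM). Calls in the frontal suture that were gained or lost without replicate 5 are given both ways.

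Dlk1 (ENSMUSG00000040856.17, chr12:109452823-109463336) and Meg3 (ENSMUSG00000021268.17, chr12:109541001-109571726) lie side by side on the plus strand of chromosome 12 (GENCODE gene models, mm10). Dlk1 encodes a transmembrane relative of the Notch ligands that holds back differentiation, and Meg3 is a long noncoding RNA expressed from the other parental copy. The 250 bases before their annotated starts are shown because several results below turn on this pair, with CpG dinucleotides, the sites of DNA methylation, in capitals (RefSeq, GRCm38.p6, 5′ to 3′ on the gene's strand). The Dlk1 window, chr12:109452573-109452822, held 8 CpG and the Meg3 window, chr12:109540746-109540995, held 10, against a median of 6 over the 32851 promoters of the table. A further Meg3 entry inside the gene, chr12:109545148-109545397, held 0 CpG and none of the TATAAA letters counted below, and is not shown.
Dlk1: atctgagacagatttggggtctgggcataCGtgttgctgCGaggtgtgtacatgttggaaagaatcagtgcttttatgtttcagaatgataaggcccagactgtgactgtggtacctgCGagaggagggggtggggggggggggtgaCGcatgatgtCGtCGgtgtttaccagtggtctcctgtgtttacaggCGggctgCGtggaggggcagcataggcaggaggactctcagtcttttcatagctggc
Meg3: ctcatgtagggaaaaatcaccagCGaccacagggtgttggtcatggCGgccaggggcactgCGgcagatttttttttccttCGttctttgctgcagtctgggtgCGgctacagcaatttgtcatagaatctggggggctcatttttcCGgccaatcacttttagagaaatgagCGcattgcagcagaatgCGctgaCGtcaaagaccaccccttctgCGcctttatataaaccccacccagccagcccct
The TATAAA letters occurred at 2 overlapping places on opposite strands of the Meg3 window and at none in the Dlk1 window, counting both strands, while 12.37% of all promoters of this length held them. Among the 15 promoter entries matched to 8 members, only 1, that of Peg3 at chr7:6730420-6730669 on the minus strand, held the letters GGGGCCCC, a palindrome close to the site known for the Plagl1 protein, beside 0.89% of all promoters.
Peg3: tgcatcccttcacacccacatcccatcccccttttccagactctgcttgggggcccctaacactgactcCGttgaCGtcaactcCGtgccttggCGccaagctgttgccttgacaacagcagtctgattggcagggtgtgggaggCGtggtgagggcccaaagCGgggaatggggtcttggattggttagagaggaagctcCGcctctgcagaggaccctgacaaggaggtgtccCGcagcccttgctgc
H19 and Cdkn1c had no entry. Some of these loci also encode microRNAs, whose mature forms were not measured here. Their mature sequences are given with the seed, bases 2 to 8, in capitals, for Mest (miR-335), H19 (miR-675) and the Dlk1-Meg3 region (miR-665, whose hairpin is taken up below).
miR-335-5p: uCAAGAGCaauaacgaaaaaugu
miR-335-3p: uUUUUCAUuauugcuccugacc
miR-675-5p: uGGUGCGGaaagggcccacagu
miR-675-3p: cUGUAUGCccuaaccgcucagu
miR-665-5p: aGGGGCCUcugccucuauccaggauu
miR-665-3p: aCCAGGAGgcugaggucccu
No seed was shared among them.

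The first comparison asked how the soft suture differed from the growing bone edge. All 10 members were higher in SM than in OF in the mean over 4 sutures and 2 ages, by the quasi-likelihood test of edgeR, with p-values adjusted over all genes after Benjamini and Hochberg and a threshold of 0.05. Of all 19768 genes, 27.6% were called higher and 27.8% lower in SM (55.4% either way), so a call in itself was common. The median log2 fold change was 0.72 over the members and 0.04 over all genes. In a bulk capture, fewer cells of a type and less RNA per cell cannot be told apart. Markers of other cell types also moved with the regions: 10 of 12 macrophage markers were higher in SM and none lower, 7 of 10 pericyte and 7 of 10 chondrocyte markers were higher and 2 of each lower, 6 of 8 suture mesenchyme markers were higher and 1 lower, and 5 of 9 hypodermis markers were higher and 2 lower. Summed levels did not all follow the counts: the hypodermis sum had a median of 239 CPM in SM and 728 CPM in OF at E16.5, and at E18.5 the pericyte sum was at 489.5 against 589 CPM and the chondrocyte sum at 363 against 393 CPM. The part of these and of the osteoblast and ectocranial markers in the member differences was not tested. Counting was blind to strand, and the exons of some members overlap other genes: 30.65% of the exonic bases of Cdkn1c, 23.12% of Mest, 21.58% of Gnas, 9.15% of H19 and 8.29% of Meg3 are shared, so reads there cannot be assigned.

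Meg3 showed the widest gap. Its level ran from 95.2 to 1443 CPM with a median of 660 over the 40 SM libraries, and from 21.6 to 495 CPM with a median of 206 over the 60 OF libraries. The mean difference was 1.44 ± 0.10 (log2, SE), or 2.72-fold (adjusted p = 1.46e-23). When the SM of each embryo was set against the mean of its own OF libraries, Meg3 was higher in SM in 40 of 40 embryos, as were 0.976% of all genes tested. The sagittal suture at E18.5 illustrates the separation: the 5 SM libraries held 1237, 959, 967, 1258 and 1443 CPM, and the 5 parietal OF libraries 276, 214, 273, 236 and 169 CPM. No OF library there came near the lowest SM library.

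Dlk1 was lower in abundance and more variable. It ran from 1.28 to 306 CPM (median 58.6) in SM and from 0.205 to 71.6 CPM (median 17.3) in OF, and the mean difference was 1.30 ± 0.12, or 2.46-fold (adjusted p = 1.41e-16). The gene was higher in SM in 35 of 40 embryos, and all 5 exceptions came from the coronal suture. In the lambdoid suture at E16.5 the SM libraries held 193, 112, 132, 107 and 306 CPM. The interparietal OF libraries there held 40.3, 71.6, 56.5, 58.9 and 57.6 CPM, and the parietal OF libraries 25.1, 20.3, 14.4, 35.1 and 47.6 CPM. Every SM library lay above every OF library, and the interparietal bone edge sat between the SM and the parietal edge except for an overlap of 40.3 with 47.6 CPM.

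Mest (ENSMUSG00000051855.15, chr6:30723547-30748465), which encodes a membrane enzyme of the hydrolase fold and marks fetal mesoderm, ran from 515 to 2586 CPM (median 1215) in SM and from 275 to 3066 CPM (median 758) in OF. The difference was 0.69 ± 0.06 (adjusted p = 6.2e-17), and Mest was higher in SM in 39 of 40 embryos. The exception was the embryo of the outlying frontal OF library. In the coronal suture at E16.5, SM libraries held 1967, 2397, 2504, 2143 and 1474 CPM, while the 10 OF libraries spanned 709 to 1429 CPM with no overlap.

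Peg3 (ENSMUSG00000002265.16, chr7:6703892-6730431) and Plagl1 (ENSMUSG00000019817.18, chr10:13060504-13131694) both encode zinc finger proteins. Peg3 had the steadiest gap of the group: it ran from 2079 to 3832 CPM (median 2377) in SM and from 1053 to 2945 CPM (median 1630) in OF, with a difference of 0.63 ± 0.03 (adjusted p = 1.48e-30). Peg3 was higher in SM in 40 of 40 embryos, and its log2 fold change stayed between 0.51 and 0.71 over the 8 combinations of suture and age. SM and OF libraries of Peg3 did not overlap in any of the 8. The share of all genes without overlap was not counted, here or for the other members described as separate. Plagl1 ran from 150.2 to 1769 CPM (median 325) in SM and from 86.3 to 1191 CPM (median 198.2) in OF, a difference of 0.76 ± 0.08 (adjusted p = 2.5e-14). It was higher in SM in 39 of 40 embryos, again with the outlying frontal library as the exception.

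Cdkn1c (ENSMUSG00000037664.13, chr7:143458339-143461050), which encodes a cyclin-dependent kinase inhibitor, ran from 151 to 539 CPM (median 375) in SM and from 125 to 337 CPM (median 193) in OF. The difference was 0.88 ± 0.05 (adjusted p = 2.59e-31), and Cdkn1c was higher in SM in 37 of 40 embryos. Sagittal SM libraries at E16.5 were almost identical, at 481, 474, 487, 489 and 484 CPM, against 188, 176, 219, 192 and 209 CPM in the parietal OF. Proliferation markers moved the other way, with 12 of 12 lower in SM than in OF, and their part in the Cdkn1c difference was not tested. Grb10 (ENSMUSG00000020176.17, chr11:11930508-12038683), an adaptor that dampens insulin and growth factor receptor signalling, differed little: 1248 to 2645 CPM (median 1639) in SM, 1062 to 2187 CPM (median 1482) in OF, and a log2 fold change of 0.19 ± 0.03 (adjusted p = 1.72e-07). Only 33 of 40 embryos showed the direction for Grb10.

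Ndn (ENSMUSG00000033585.5, chr7:62346569-62350262), a member of the MAGE family known from neurons, was scarce, at 24.2 to 91.5 CPM (median 43.8) in SM and 1.04 to 54.1 CPM (median 22.5) in OF. It was nevertheless higher in SM in 40 of 40 embryos, by 0.92 ± 0.11 (adjusted p = 9.13e-12). H19 (ENSMUSG00000000031.16, chr7:142575529-142578143), a long noncoding RNA, was the most abundant member per kilobase of counted exon, with medians of 2178 CPM per kb in SM and 2026 in OF. Its difference was the smallest, 0.15 ± 0.05 (adjusted p = 0.0098), and 29 of 40 embryos showed the direction. Without the sagittal suture the H19 difference was 0.13 and no longer passed (adjusted p = 0.0605). Gnas (ENSMUSG00000027523.20, chr2:174284320-174346744), which encodes the stimulatory G protein alpha subunit and overlapping transcripts, differed by 0.50 ± 0.11 (adjusted p = 6.3e-05) in 35 of 40 embryos. Its bulk level was low, with medians of 47.5 CPM in SM and 29.6 CPM in OF, while the summed suture cells of the single-cell libraries held 1521 to 2861 CPM on the scale of UMIs.

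Taking embryos one by one, all 10 members were higher in SM in 19 embryos, 9 in 13 embryos, 8 in 4 and 7 in 4. No embryo had fewer than 7, while 46.1% to 56.3% of all genes tested were higher in SM in an embryo (median 49.7%). Of all genes, 24.4% were higher in at least 29 embryos, 13.6% in at least 33, 9.20% in at least 35, 5.19% in at least 37 and 2.05% in at least 39.

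**Figure D1:**
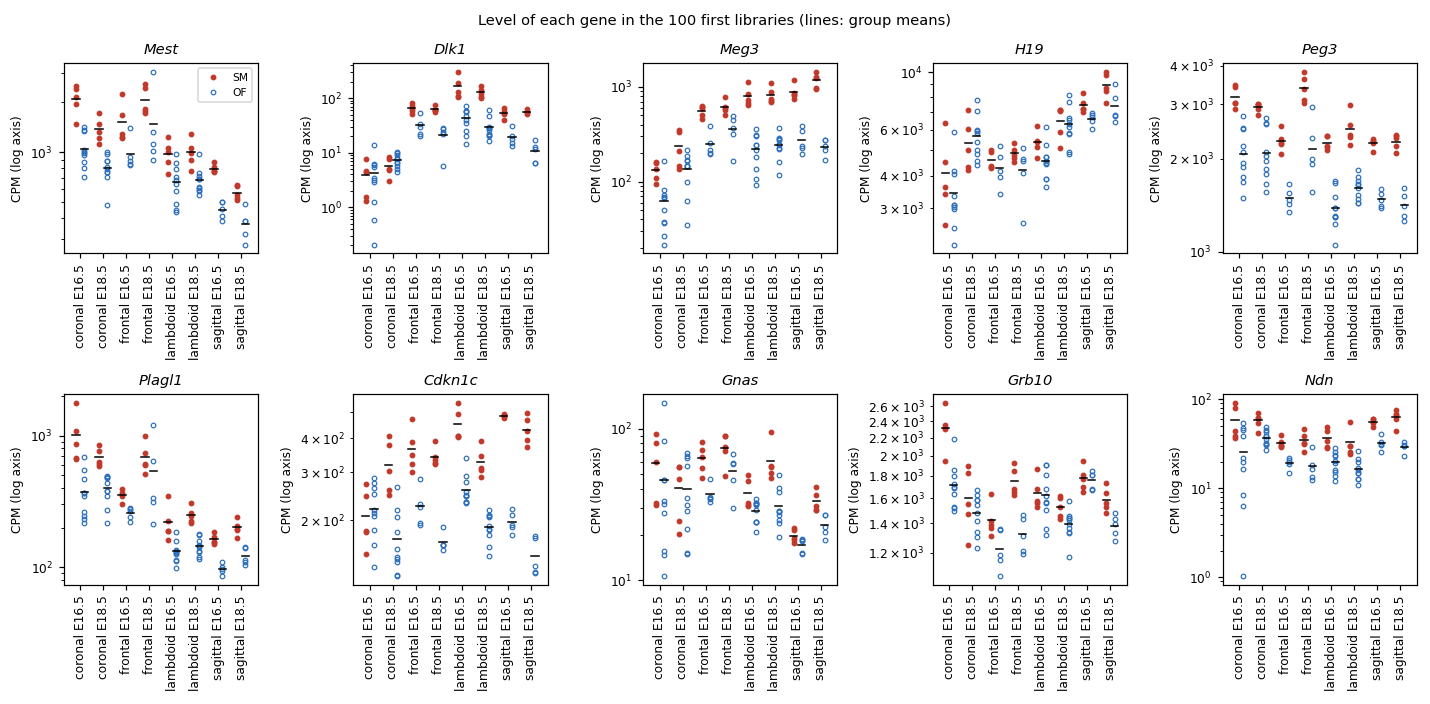
Level of each gene in CPM (log axis) in the 100 first libraries, by suture and age, with SM as filled red points, OF as open blue points and lines at group means. SM points lie above OF points for Peg3 in all 8 suture and age combinations, a separation not counted over all genes. Dlk1 in the coronal SM, at most 8.29 CPM, lies below the SM of the other sutures, from 40.5 CPM.

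Separate tests for each suture and age asked whether the regional gap held throughout. Of 80 such tests on members, 47 were called higher in SM, none was called lower, and 77 fold changes were positive. The share of all genes called higher ranged over these contrasts from 2.76% (frontal, E16.5) to 20.9% (coronal, E16.5), with 5.7% in coronal at E18.5, 4.23% in frontal at E18.5, 9.84% and 12.2% in lambdoid, and 6.58% and 10.8% in sagittal at E16.5 and E18.5. Peg3 passed in 8 of 8, Mest, Meg3 and Cdkn1c in 7, Plagl1 in 6, Dlk1 in 5, Ndn in 4, Grb10 in 2, Gnas in 1 and H19 in 0. Without replicate 5 there were 50 calls, none lower, 76 fold changes were positive, and Ndn passed in 5, with a difference of 1.23 in the frontal suture at E18.5 (adjusted p = 0.0424) in place of 0.96 (adjusted p = 0.0561).

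The gap itself differed between sutures for 3 members. A test of the SM less OF difference among the 4 sutures, which called 20% of all genes, called Cdkn1c (adjusted p = 1.51e-07), Dlk1 (adjusted p = 4.07e-07) and Meg3 (adjusted p = 0.0013). For Meg3 the difference ranged from 0.77 ± 0.31 in frontal at E18.5 to 2.33 ± 0.32 in sagittal at E18.5. For Dlk1 it reached 2.37 ± 0.38 in sagittal at E18.5 and 2.13 ± 0.30 in lambdoid at E18.5, but in the coronal suture it was 0.09 ± 0.34 at E16.5 and -0.33 ± 0.33 at E18.5, neither past the threshold (adjusted p = 0.868 and 0.603).

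Coronal Dlk1 was low in every captured region. At E16.5 the SM libraries held 4.44, 7.61, 1.54, 1.28 and 4.60 CPM, the frontal OF libraries 5.47, 0.205, 2.89, 1.25 and 0.585 CPM and the parietal OF libraries 3.39, 6.01, 14.1, 3.18 and 6.12 CPM. The lowest of these rests on 4 counts and the others on 10 to 243. At E18.5 the SM libraries held 8.29, 2.99, 7.78, 4.87 and 5.07 CPM, and the OF libraries spanned 4.51 to 10.1 CPM. The coronal SM and OF overlapped at both ages, at levels below the 40.5 CPM that was the lowest SM library of the sagittal suture at E16.5. From the lowest group mean, 2.08 CPM in coronal frontal OF at E16.5, to the highest, 169.8 CPM in lambdoid SM at E16.5, Dlk1 spanned 81.6-fold. Meg3 spanned 23.6-fold, Plagl1 10.4-fold and Grb10 1.89-fold over the same groups. These spans are those of the first libraries. The highest Plagl1 group was coronal SM at E16.5, with a mean of 1012 CPM, where the second libraries held 170.0, 289 and 213 CPM. In coronal frontal OF at E16.5 the second libraries held 3.43, 5.90 and 5.28 CPM of Dlk1. In the 2 litters that gave both a coronal and a frontal suture, Dlk1 in SM was at 4.44 CPM in the coronal and 64.4 to 79.9 CPM in the frontal libraries at E16.5, and at 8.29 and 2.99 CPM against 76.5 CPM at E18.5.

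The highest coronal SM library of Meg3, at 349 CPM, also lay below the lowest SM library of the other sutures, at 463 CPM, yet Meg3 kept a regional gap in the coronal suture. At E16.5 the coronal SM libraries held 159, 158, 138, 95.2 and 108 CPM against 21.6 to 164 CPM in OF, a difference of 1.10 ± 0.26 (adjusted p = 0.000324). The groups overlapped through a single parietal OF library at 164 CPM. In the coronal suture, then, the gap passed the test for Meg3 and not for its neighbour Dlk1, and the difference between the genes was not tested.

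Cdkn1c in the coronal suture had a gap at the later age and none detected at the earlier. At E16.5 the SM libraries held 181, 245, 151, 183 and 272 CPM and the OF libraries 135 to 286 CPM, a difference of -0.08 ± 0.12 (adjusted p = 0.662). At E18.5 the SM libraries held 378, 409, 247, 302 and 257 CPM and the OF libraries 125 to 265 CPM, a difference of 0.93 ± 0.12 (adjusted p = 2.32e-09). SM and OF were intermingled at the earlier age and nearly separate at the later. In the sagittal suture the gap was widest, at 1.29 ± 0.14 at E16.5 and 1.54 ± 0.14 at E18.5.

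In the frontal suture at E18.5 Mest and Plagl1 each had the smallest gap of their own 8 contrasts, Mest at 0.49 ± 0.19 (adjusted p = 0.0966) and Plagl1 at 0.36 ± 0.24 (adjusted p = 0.429). Mest was at 1123, 1013, 1319, 894 and 3066 CPM in the frontal OF libraries against 1737 to 2586 CPM in SM, and Plagl1 at 337, 639, 314, 212 and 1191 CPM against 515 to 990 CPM. The highest OF value of each belongs to the library with the high ectocranial markers. With replicate 5 left out of all groups the differences were 0.97 for Mest (adjusted p = 0.000132) and 0.92 for Plagl1 (adjusted p = 0.000969). With replicate 4 left out instead they were 0.36 for Mest (adjusted p = 0.421) and 0.16 for Plagl1 (adjusted p = 0.843).

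**Figure D2:**
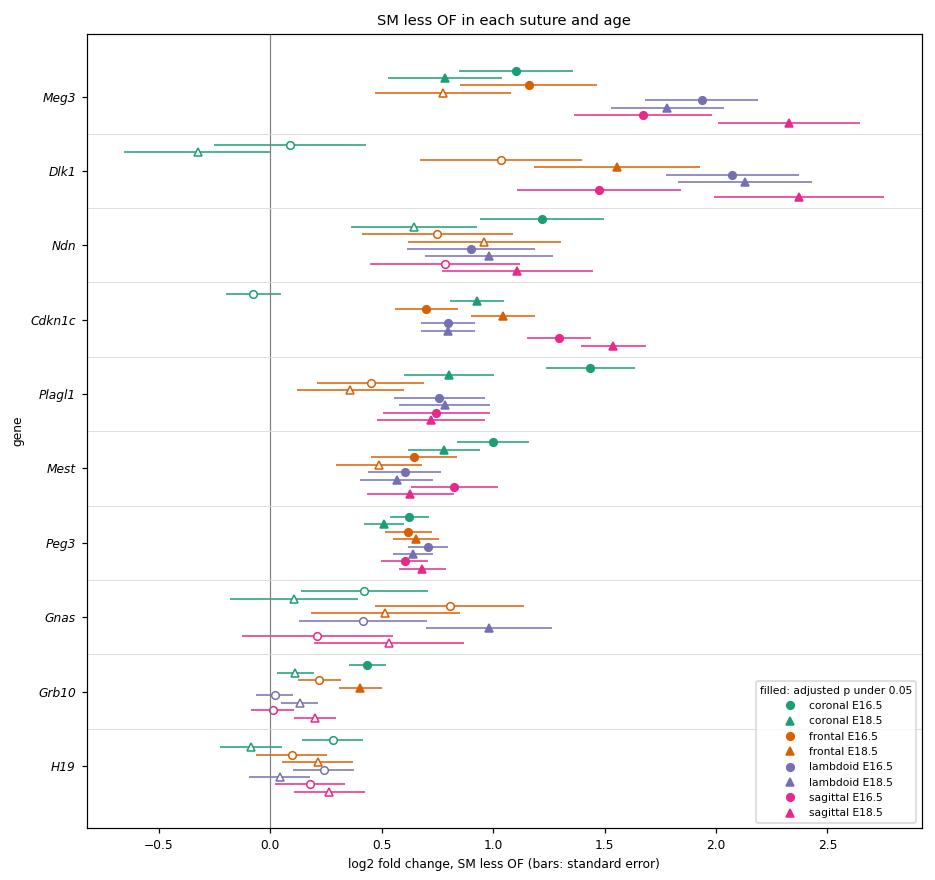
Log2 fold change of SM less OF for each gene in each suture and age (points, coloured by suture), with bars for the standard error and filled symbols for an adjusted p under 0.05. The points lie right of 0 in 77 of 80 cases, and the 3 points left of 0 are coronal: Dlk1 at E18.5 (-0.33), H19 at E18.5 (-0.09) and Cdkn1c at E16.5 (-0.08).

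The second comparison asked how the members changed between E16.5 and E18.5, the last days of fetal suture growth. The ages came from different embryos, and no litter gave both ages, so age cannot be told apart from litter. Littermates entered the main fit as independent. Cell type markers also moved with age: 12 of 12 proliferation markers were lower at E18.5 in SM and 7 of 12 in OF, 8 of 10 pericyte markers were higher and 1 lower in OF, and 7 of 12 macrophage markers were higher in SM. In SM and in OF alike, 3 of 6 ectocranial mesenchyme and 4 of 11 endothelial markers were higher and none lower. In SM, 4 of 8 suture mesenchyme markers were higher, and 4 of 10 chondrocyte markers were lower and 1 higher. In OF, 4 of 12 osteoblast markers were higher and 1 lower. The median ectocranial sum in SM was 2755 CPM at E16.5 and 4205 CPM at E18.5. The summed proliferation markers ran from 1009 to 4796 CPM (median 1442) at E16.5 and from 446 to 2404 CPM (median 782) at E18.5 in SM. The part of all these markers in the member changes was not tested. In SM, 2 of 10 members were called higher at E18.5 and none lower, against 5.14% of all genes higher and 5.92% lower: H19 by 0.25 ± 0.08 (adjusted p = 0.0278) and Peg3 by 0.16 ± 0.05 (adjusted p = 0.0348). In OF, 4 were called higher and 2 lower, against 6.05% and 6.14% of all genes. H19 rose by 0.34 ± 0.07 (adjusted p = 0.00017), Plagl1 by 0.40 ± 0.10 and Peg3 by 0.17 ± 0.05 (both adjusted p = 0.0043), and Meg3 by 0.41 ± 0.13 (adjusted p = 0.028). Cdkn1c fell by 0.42 ± 0.06 on the log2 scale (adjusted p = 1.2e-07) and Grb10 fell by 0.17 ± 0.04 (adjusted p = 0.0027).

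Several of these calls were lost with 4 replicates a group or under another model, at fold changes of similar size. Plagl1 in OF lost its call when same-numbered samples were treated as a random replicate block (0.33, adjusted p = 0.0646) or litters as a random block (0.33, adjusted p = 0.0881), and in limma voom with no block (0.33, adjusted p = 0.0596). Meg3 in OF lost it with the litter block (0.40, adjusted p = 0.0535) and without replicate 3, 4 or 5 (0.32 to 0.43). H19 in SM lost it without replicate 1, 3 or 4 (0.19 to 0.27, adjusted p = 0.0559 to 0.22) and with the second coronal libraries (0.20, adjusted p = 0.296), Peg3 in SM without replicate 1, 2, 3 or 4 (0.11 to 0.18, adjusted p = 0.051 to 0.29), with no low-count filter (0.15, adjusted p = 0.0781) and with the second coronal libraries (0.21, adjusted p = 0.129), and Peg3 in OF without replicate 5 (0.14, adjusted p = 0.0572). Grb10 in OF lost it with the second coronal libraries (-0.13, adjusted p = 0.0663). The same setting called Gnas higher in SM (0.56, adjusted p = 0.000565, against 0.28 with the first libraries) and in OF (0.36, adjusted p = 0.0151), and Meg3 higher in SM (0.45, adjusted p = 0.0401). Meg3 in SM also passed without replicate 2 (0.42, adjusted p = 0.0451), Plagl1 in SM without replicate 5 (0.32, adjusted p = 0.0324) and Grb10 in SM, lower, with DESeq2, limma voom and the random replicate block (-0.13 to -0.12, adjusted p = 0.0371 to 0.0452).

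The age change differed among the 4 sutures for 9 of 10 members, all but Ndn, in a test that called 33% of all genes. With the second coronal libraries it called 4 members, and the share of all genes it called in that setting was not counted. Leaving out a suture in turn ended several calls of the mean, in part at nearly the same fold change. It ended the call of H19 in SM without the coronal (0.20, adjusted p = 0.202), lambdoid (0.24, adjusted p = 0.0818) or sagittal suture (0.25, adjusted p = 0.0628). Peg3 in SM lost its call without the frontal (0.02, adjusted p = 0.89) or lambdoid suture (0.16, adjusted p = 0.0834). In OF, Meg3 lost it without the coronal (0.16, adjusted p = 0.667) or frontal suture (0.37, adjusted p = 0.0734) and H19 without the coronal suture (0.20, adjusted p = 0.135). Peg3 lost it without the frontal (0.05, adjusted p = 0.529) or lambdoid suture (0.16, adjusted p = 0.0572), Plagl1 without the frontal suture (0.18, adjusted p = 0.326) and Grb10 without the sagittal suture (-0.11, adjusted p = 0.108). Calls were also gained: in SM, Plagl1 was called higher without the coronal suture (0.48, adjusted p = 0.0178), and Mest and Grb10 were called lower without the frontal suture (-0.35, adjusted p = 0.0259, and -0.27, adjusted p = 0.000309). In OF, Dlk1 was called lower without the coronal suture (-0.63, adjusted p = 0.0268).

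The fall of Cdkn1c in OF was the exception. Its log2 change was -0.38 in the coronal, -0.44 in the frontal, -0.46 in the lambdoid and -0.41 in the sagittal suture. The coronal and lambdoid changes passed on their own (both adjusted p = 0.0019) and the frontal and sagittal did not (adjusted p = 0.0584 and 0.155). The coronal and lambdoid OF had 10 libraries at each age, from 5 embryos and fitted as independent, and the frontal and sagittal OF had 5. Without replicate 5 the frontal change was -0.31 (adjusted p = 0.455). The mean over sutures stayed past the threshold whichever suture was left out (-0.44 to -0.41). In the lambdoid OF the 10 libraries at E18.5 spanned 148 to 218 CPM and the 10 at E16.5 spanned 230.5 to 337 CPM, with no overlap. The fall in OF exceeded the change in SM by 0.40 ± 0.09 on the log2 scale (interaction -0.40, adjusted p = 0.0146), in a test that called 0.703% of all genes. That interaction rested on the coronal suture, where Cdkn1c rose by 0.63 ± 0.14 in SM (adjusted p = 0.000436) while it fell by 0.38 ± 0.10 in OF (adjusted p = 0.0019). Without the coronal suture the interaction was -0.20 (adjusted p = 1), and it also lost its call without replicate 1, 3, 4 or 5 (-0.40 to -0.33, adjusted p = 0.0725 to 0.159). With the second coronal libraries the call was lost too, and it passed in 10 of 16 alternatives.

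Of the 17 calls of a member with age in a single suture, all but 3 fell in the coronal or frontal suture. In the coronal SM, Meg3 rose by 0.84 ± 0.31 (adjusted p = 0.0316), while Mest fell by 0.61 ± 0.19 (adjusted p = 0.0127) and Grb10 fell by 0.53 ± 0.10 (adjusted p = 1.36e-05). Grb10 libraries there went from 2645, 2320, 1946, 2355 and 2308 CPM at E16.5 to 1827, 1897, 1469, 1549 and 1248 CPM at E18.5, without overlap. In the coronal OF, Meg3 rose by 1.16 ± 0.22, Dlk1 by 0.99 ± 0.28 and H19 by 0.75 ± 0.11 (adjusted p = 1.49e-05, 0.0034 and 1.14e-07), while Mest fell by 0.39 ± 0.14 (adjusted p = 0.0203), Grb10 by 0.21 ± 0.07 (adjusted p = 0.0111) and Cdkn1c by 0.38 ± 0.10, as given above. The share of all genes called at this age step was 27.1% in coronal SM and 33.1% in coronal OF, the highest of the 8 contrasts. It was 2.33% and 4.34% in frontal, 2.96% and 3.29% in lambdoid and 1.12% and 1.6% in sagittal SM and OF. Of 40 such tests on members in SM, 4 were called higher at E18.5 and 2 lower, and of 40 in OF, 6 higher and 5 lower.

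Some coronal age changes depended on which library of an embryo was used. When the 18 second coronal libraries took the place of the first of the same embryo and region, 4 of the 10 coronal calls were lost: Mest in SM (-0.37, adjusted p = 0.349) and in OF (-0.25, adjusted p = 0.342), Grb10 in OF (-0.07, adjusted p = 0.62) and Dlk1 in OF (0.72, adjusted p = 0.0764). Meg3 stayed past the threshold in SM (1.22) and, with a larger rise, in OF, as did H19 in OF (0.65), Cdkn1c in SM (0.53) and OF (-0.38) and Grb10 in SM (-0.41). Among the second libraries alone, Dlk1 in OF spanned 3.43 to 19.6 CPM at E16.5 and 6.62 to 16.6 CPM at E18.5, which overlap. Plagl1 in SM was at 170.0, 289 and 213 CPM at E16.5 and at 449, 605 and 419 CPM at E18.5 in the second libraries, but at 1069.6, 661 and 681 CPM and at 591, 762 and 610.4 CPM in the first libraries of the same samples. For Plagl1 in coronal SM the ages thus did not overlap in the second libraries, with E18.5 higher, and overlapped in the first, and the difference between the library sets was not tested.

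In the frontal SM, Plagl1 rose by 0.97 ± 0.24 (adjusted p = 0.0119) and Peg3 by 0.57 ± 0.10 (adjusted p = 0.000189). Plagl1 libraries there went from 345, 365, 304, 391 and 358 CPM to 515, 738, 990, 610 and 596 CPM, and Peg3 from 2548, 2254, 2079, 2236 and 2317 CPM to 3040, 3616, 3832, 3363 and 3092 CPM. Both genes were separate between the ages. In the frontal OF the changes were 1.06 ± 0.24 for Plagl1 (adjusted p = 0.0038) and 0.53 ± 0.10 for Peg3 (adjusted p = 0.000588), but with replicate 5 left out they were 0.56 (adjusted p = 0.235) and 0.40 (adjusted p = 0.0592). The change of Mest in frontal OF, 0.60 (adjusted p = 0.056), was 0.13 (adjusted p = 0.939) without replicate 5 and 0.74 (adjusted p = 0.0454) without replicate 4. All 4 frontal calls were also lost when the second coronal libraries entered the shared fit, at fold changes of 0.54 to 1.07 (adjusted p = 0.0689 to 0.164). With them, the calls of H19 in lambdoid OF (0.46, adjusted p = 0.0904) and Grb10 in sagittal OF (-0.35, adjusted p = 0.114) were lost too, and of the 7 calls outside the coronal suture that of Cdkn1c in lambdoid OF was left.

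**Figure D3:**
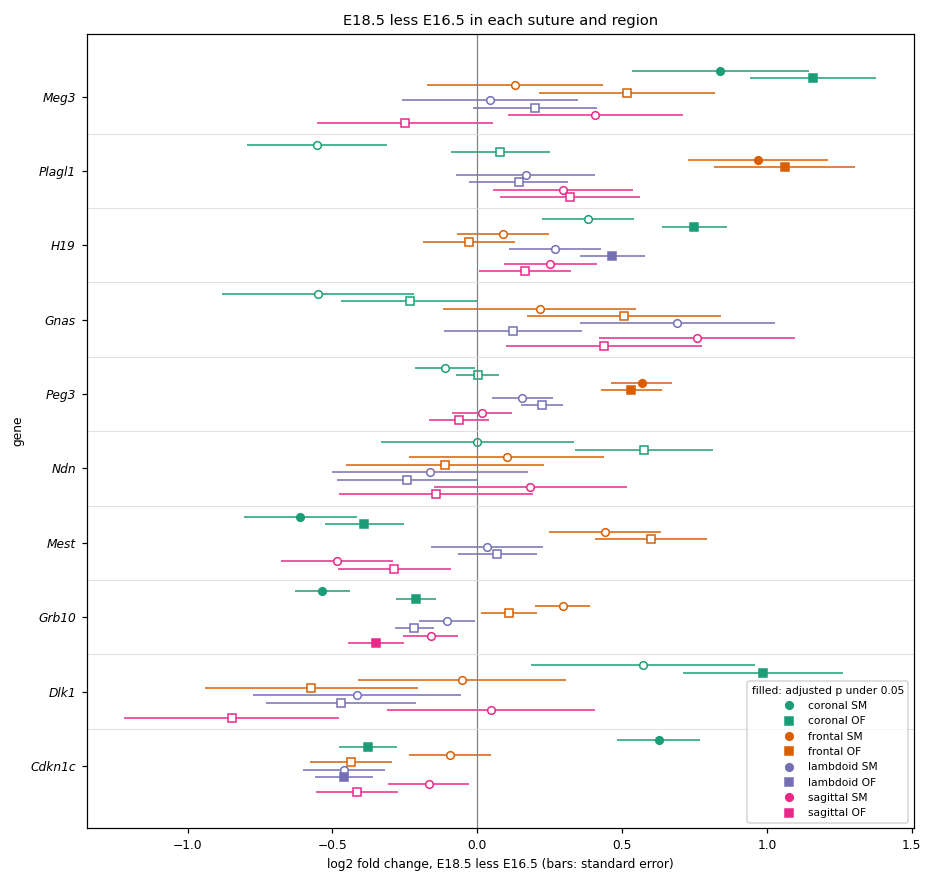
Log2 fold change of E18.5 less E16.5 for each gene in each suture, for SM (circles) and OF (squares), with bars for the standard error and filled symbols for an adjusted p under 0.05. Cdkn1c lies left of 0 in all 4 OF contrasts, its coronal SM point stands alone at 0.63, and Plagl1 and Peg3 are called in the frontal suture.

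Members varied together in part. Across the 20 group means of log2 CPM, Pearson's r was 0.87 for Dlk1 and Meg3, 0.88 for Mest and Plagl1 and 0.81 for Peg3 and Plagl1. These points share sutures, regions and library sets. After subtraction of group means, over 100 libraries, r was 0.69 for Peg3 and Plagl1 and 0.44 for Dlk1 and Meg3, but 0.16 for Mest and Plagl1. Without the outlying frontal OF library these were 0.62, 0.43 and -0.09. The pair next to Peg3 and Plagl1 was Meg3 and Gnas (0.64 within groups, 0.14 over group means), and the lowest of the 45 pairs was Meg3 and Cdkn1c, at -0.41 within groups and 0.69 over group means. The tested genes with group patterns most like Dlk1 were Gata2 (r = 0.97), a zinc finger transcription factor, and Mir665 (r = 0.97), the miR-665 hairpin whose mature sequences are given above and lie at chr12:109586331-109586387, beyond the end of Meg3. For Meg3 they were Ccdc136 and Gm26315 (both 0.97), for Plagl1 Eml5 (0.96) and Lyst (0.95), for Peg3 Sntb2 (0.94) and Aff3 (0.93), and for H19 Pacsin3 (0.93) and Stx4a (0.90). For Mest they were Zfp808 and Gm17571 (both 0.92), for Gnas Mylk and Abcc9 (both 0.90), for Ndn Wdr41 and Gm8773 (both 0.89), for Cdkn1c Sorbs2 and Itsn1 (both 0.88), and for Grb10 Ankrd10 (0.79) and Zmynd11 (0.76).

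A wider imprinted set was counted in the same way. Of 46 further imprinted genes, 42 were tested, and 20 were called higher and 8 lower in SM than in OF, with a median log2 fold change of 0.41, beside 27.6% and 27.8% of all genes. Rtl1, a retrotransposon-derived gene of the Dlk1-Meg3 region, was higher by 1.65 ± 0.14, Nap1l5 by 1.56 ± 0.33 and Rasgrf1, a Ras exchange factor, by 1.55 ± 0.16. Lower in SM were Sfmbt2, a Polycomb protein, by -1.72 ± 0.12, Tnfrsf23, a decoy receptor, by -1.12 ± 0.10 and H13, a signal peptide peptidase, by -0.57 ± 0.06. With age, 2 were higher and 3 lower in SM, and 2 were higher and 5 lower in OF, beside 5.14% and 5.92% of all genes in SM and 6.05% and 6.14% in OF. Zim1 was higher at E18.5 in both (0.49 ± 0.12 in SM and 0.43 ± 0.10 in OF), and so were Ppp1r9a in SM (0.29 ± 0.09) and Cd81 in OF (0.31 ± 0.07). Peg10 was lower in both (-0.69 ± 0.09 and -0.67 ± 0.08), as was Snrpn (-0.74 ± 0.24 and -0.75 ± 0.21), of whose exonic bases 34.14% overlap other genes. Slc38a4 was lower in SM (-0.49 ± 0.06) and Rasgrf1 in OF (-1.23 ± 0.21).

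Single cells of the coronal suture showed which cells carried the transcripts. Of cells with over 800 detected genes, those within 3 median absolute deviations of their library were kept, and 466 and 337 cells remained in the E16.5 libraries and 2412 and 1577 in the E18.5 libraries, with median depths of 2501, 2121, 18476 and 7131 UMIs (unique molecular identifiers, each a counted transcript). Libraries of the same age shared 1 barcode at E16.5 and 5 at E18.5. Cells were clustered without the imprinted genes, and clusters were called like a cell type from fixed markers. UMIs of a cluster were summed in each library and given as CPM of that sum. Each age had 2 libraries of pooled sutures, and the kits differed between ages, so no test was made, and the 95% intervals cover counting error only. Macrophage-like cells, a blood lineage, gave a level for comparison. Dlk1 had 0 UMIs in 64 and 45 such cells at E16.5, and 33.5 and 9.80 CPM in those of E18.5. H19 held 836 and 526 CPM and Mest 65.2 and 80.3 CPM in the macrophage-like cells of E18.5.

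Osteoblast-like cells (16 and 19 cells at E16.5, 114 and 362 at E18.5) were set against all other suture cells of the same library. At E18.5 they were led by Ibsp, Bglap and Smpd3. The other cells there included unnamed clusters led by Gpx3 and Mmp13 and by Mmp13, Tnc and Postn. The study used Mmp13 and Postn to mark osteoblast and periosteal populations. Levels in these clusters, the latter from library 2 alone, were 5827 and 2894 CPM for H19 and 689 and 510 CPM for Mest. The comparison thus covers the Ibsp-led cells and does not describe osteogenic cells as a class. For 9 of 10 members, all but Gnas, the level was lower in osteoblast-like cells in 4 of 4 libraries, with intervals above 1. Of the 1156 genes with at least 43 UMIs in the other suture cells of every library, which was the lowest count of a member, 49.7% were lower in 4 of 4 libraries and 13.1% had intervals above 1 in all 4. At E18.5 Meg3 held 180 and 270.2 CPM in osteoblast-like cells against 2210 and 2781 CPM in the others, 12.3-fold (95% interval 11.3 to 13.5) and 10.3-fold (9.61 to 11.0) lower. Mest was 11.2-fold (9.64 to 13.2) and 6.32-fold (5.59 to 7.16) lower, and H19 7.73-fold (7.41 to 8.07) and 5.71-fold (5.44 to 6.00) lower. The osteoblast-like levels of Mest, at 59.3 and 89.3 CPM, and of H19, at 778 and 559 CPM, were close to or below those of macrophage-like cells. Background RNA was not estimated, so its part in these levels and in the ratios of Mest and H19 was not tested. Whether macrophage-like cells express these genes themselves was not tested either. For Meg3, Peg3, Plagl1, Cdkn1c, Grb10 and Ndn the osteoblast-like level lay above the macrophage-like level in both E18.5 libraries, most narrowly in library 1 for Ndn and for Meg3 (180 against 139 CPM for the latter). Dlk1 was 4.31-fold (3.68 to 5.08) and 5.49-fold (4.57 to 6.64) lower, at 55.7 and 40.1 CPM. The pericyte-like and ectocranial mesenchyme-like cells carried this ratio: against the remaining suture cells it was 1.00 (0.851 to 1.19) and 0.776 (0.614 to 0.983). Against the same remaining cells the Meg3 ratios were 7.99 (7.32 to 8.74) and 6.14 (5.72 to 6.60).

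The E16.5 osteoblast-like cells were few, and several members were counted there in single UMIs. In library 1, Mest and Meg3 had 0 UMIs in 16 cells. Against a floor of 3 counts, other suture cells were at least 11.5-fold higher in Mest and at least 54.5-fold higher in Meg3, and the lower limits of the exact 95% intervals were 9.33-fold and 44.3-fold. Dlk1 had 1 UMI in each library, giving ratios of 65.4 (95% interval 11.7 to 2585) and 8.63 (1.47 to 349). The hypodermis-like cluster, with 121 of the 299 other suture cells of library 1 and 1 of the 134 of library 2, carried much of this: without it the Dlk1 ratios were 23.2 (4.13 to 920) and 7.91 (1.34 to 320.2), the lower limit for Meg3 in library 1 was 25.0-fold, and the Cdkn1c ratio in library 1 was 6.92 in place of 9.89. H19 was 6.34-fold (4.22 to 10.0) and 6.19-fold (4.46 to 8.84) lower. An unnamed cluster made up 60 of the 299 other suture cells of library 1 and 67 of the 134 of library 2. Its leading genes included Rgs5, Mmp9, Mmp13, Pf4 and Fabp4, so the E16.5 ratios also have a mixed comparison. No E16.5 cluster was named suture mesenchyme-like.

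Over the 4 libraries, Peg3 was 2.58- to 4.30-fold, Plagl1 4.12- to 5.94-fold, Cdkn1c 2.54- to 9.89-fold, Grb10 2.25- to 4.85-fold and Ndn 3.49- to 13.5-fold lower in osteoblast-like cells. The 5.94 and 13.5 came from E16.5 library 1. Without its hypodermis-like cells the ratios there were 3.46 (1.33 to 12.9) for Plagl1 and 8.92 (1.57 to 356) for Ndn. Gnas was the exception, with ratios of 1.11 (0.907 to 1.36) and 0.981 (0.833 to 1.16) at E16.5 and 1.41 (1.37 to 1.45) and 1.62 (1.56 to 1.69) at E18.5. It was held at 1045 to 2413 CPM in osteoblast-like cells.

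**Figure D4:**
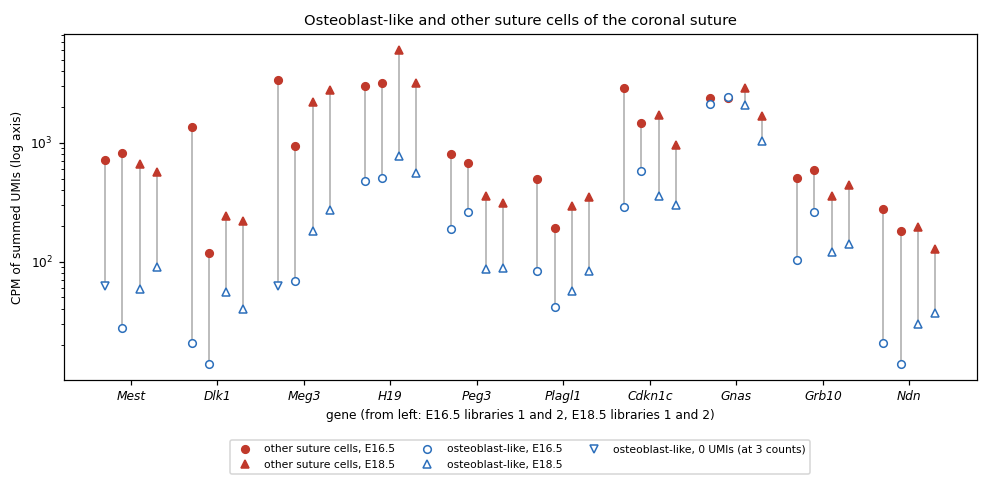
Level of each gene (CPM of summed UMIs, log axis) in osteoblast-like cells (open) and in all other suture cells (filled) of the 4 coronal single-cell libraries, joined within a library. Downward triangles mark 0 UMIs, drawn at 3 counts. The filled points lie above the open ones in every library for 9 genes, while for Gnas the order is turned in E16.5 library 2 (2366 against 2413 CPM).

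Among the mesenchymal clusters, the members differed in where they peaked. Dlk1 was concentrated in few of them. At E16.5 it reached 3007 CPM in the hypodermis-like cells of library 1, which gave 121 of the 122 cells of that cluster, and 1005 and 331 CPM in ectocranial mesenchyme-like cells, against 64.2 and 14.1 CPM in dura mater-like cells. At E18.5 it reached 2170 and 1648 CPM in pericyte-like cells and 614 and 647 CPM in the larger ectocranial mesenchyme-like cluster, but 45.1 and 31.6 CPM in suture mesenchyme-like cells. The suture mesenchyme-like cells, led by Ptx4, Dpt and Hhip, were thus no higher in Dlk1 than the osteoblast-like cells of the same libraries. This stands beside the low coronal Dlk1 in the laser-captured SM, given above. Summed over all suture cells, however, Dlk1 held 228 and 172 CPM at E18.5 and 1286 and 101 CPM at E16.5. The captured coronal first libraries held at most 10.1 CPM at E18.5 and 14.1 CPM at E16.5. The scales differ, as single cells were counted in UMIs, and this gap was not tested.

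Meg3 was highest at E18.5 in pericyte-like cells too (4461 and 6523 CPM), but broader: 3985 to 5449 CPM in ectocranial mesenchyme-like, 2639 to 5902 CPM in dura mater-like and 2142 to 3108 CPM in suture mesenchyme-like cells at E18.5, and lowest in osteoblast-like cells. Cdkn1c peaked in dura mater-like cells at E18.5 (3918 and 2774 CPM) and at E16.5 in hypodermis-like cells (4499 CPM), while proliferating cells held 892 and 598 CPM at E18.5. Plagl1 was likewise highest in dura mater-like cells at E18.5 (557 and 643 CPM). That cluster took its name from 1 marker among its 10 leading genes. Of these genes, Mfap5 and Igfbp6 were also among the leading genes of the hypodermis-like cluster at E16.5. H19 held 2876 to 6655 CPM in the ectocranial, dura mater-like, suture mesenchyme-like, proliferating and unnamed clusters with cells of both E18.5 libraries, and was low in the pericyte-like (607 and 739 CPM) and osteoblast-like cells (559 and 778 CPM).

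Mest and Gnas were also high outside the suture lineage. At E16.5 the endothelial-like cells held 2511 and 3024 CPM of Mest, above the 923 and 967 CPM of ectocranial mesenchyme-like cells, the highest suture cluster. The same endothelial-like cells held 8707 and 8178 CPM of Gnas. Chondrocyte-like cells at E18.5 held 2410 and 10457 CPM of Meg3, the latter from 11 cells.

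**Figure D5:**
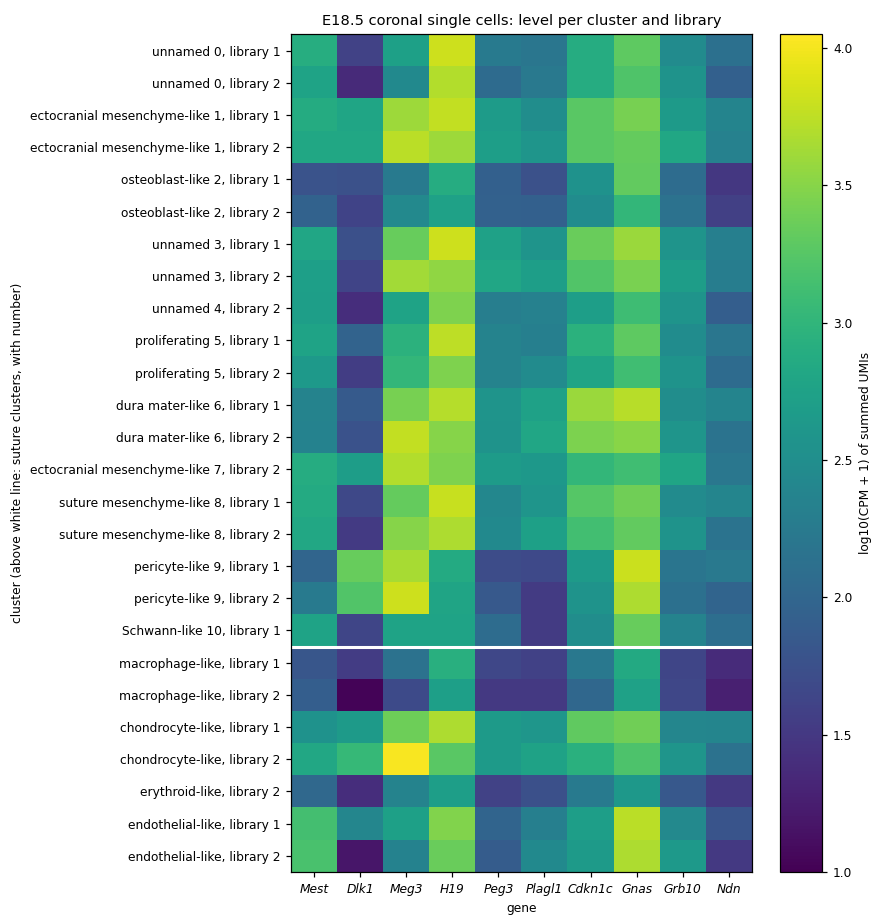
Level of each gene, as log10(CPM + 1) of summed UMIs, in each cluster and library of the E18.5 coronal suture, with suture clusters above the white line and other clusters below. Among suture clusters Dlk1 is brightest in pericyte-like cells (2170 and 1648 CPM) and next in ectocranial mesenchyme-like cells, and Meg3 in osteoblast-like cells is at 180 and 270.2 CPM.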

How the data were processed

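The members and lists were chosen with earlier results of these data known. The authors aligned reads of laser-captured tissue, amplified with Ovation RNA-Seq V2, with STAR 2.5.3a to mm10 and deposited raw counts per gene from featureCounts 1.6.4, and for single cells deposited UMI counts per gene and barcode. A deposited table of the authors' own log2 ratios, with 62 columns, was not used. Here, a gene was kept when more than 10% of the 100 first libraries reached 1 CPM, and the 19768 genes kept of 55487 were fitted with edgeR 4.0.16 (TMM scaling, quasi-likelihood F test, Benjamini-Hochberg adjustment, threshold 0.05) over 20 groups of 5. For a suture with a pair of bones the fitted means of both OF groups were averaged. Their libraries entered the main fit as independent. DESeq2 1.42.0, limma 3.58.1 (voom), other scaling, no filter, blocks, left-out replicates, second coronal libraries and, chosen after seeing the data, left-out sutures, left-out single-cell clusters and correlations without 1 frontal library were alternatives. The labels give same-numbered regions of an embryo 1 litter identifier, so numbers pair samples (median correlation of deviations 0.0998 over 60 pairs, -0.028 over 240 others). In simulated data the regional test recovered 67 of 100 genes changed 1.5-fold and 77 of 100 changed 2-fold, with 4 false calls among 18266 genes.

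Single cells with over 800 genes and within 3 median absolute deviations were clustered with scanpy 1.11.5 (2000 variable genes without imprinted genes, 13 and 15 components, 100 and 50 neighbours, resolution 0.8). No doublet caller was run, and cluster names were rebuilt from markers, so they may differ from the study's. Barcodes passing 800 genes matched the study's stated cell numbers at E18.5 and were fewer than stated at E16.5. Intervals are exact 95% intervals for counting error. All 10 members were named in each comparison, and of the other imprinted genes the 3 largest called changes in each direction. For each member the 2 tested genes with the highest correlation over group means were named.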

Additional observations from a re-analysis of the deposited data

Results flagged for a closer look

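Among 200 groups of 5 libraries (10 genes in 20 groups), 17 held a library whose gap to its nearest neighbour took a share of the group's range above the critical value of 0.71, which chance alone would pass in about 1 of 20 groups. In 15 the highest library stood apart and in 2 the lowest. Mest did so in frontal OF of the frontal suture at E16.5 (0.8323, a library at 1396 CPM) and at E18.5 (0.8044, replicate 5 at 3066 CPM). Dlk1 did so at its lowest in frontal OF at E18.5 (0.7442, 5.68 CPM against 22.5 to 28.3 CPM) and at its highest in frontal SM at E18.5 (0.7320) and coronal parietal OF at E16.5 (0.7314). Meg3 did so in frontal OF at E16.5 (0.7142) and sagittal SM at E16.5 (0.7429), H19 in coronal frontal OF at E18.5 (0.8195, 7790 CPM), and Cdkn1c in frontal OF (0.8007) and frontal SM (0.7221) at E18.5. Gnas did so in 5 groups: frontal OF at E16.5 (0.8320), coronal frontal OF at E16.5 (0.7696, 148 CPM against 15.6 to 46.1 CPM) and, at the low end, at E18.5 (0.7785, 15.2 CPM), lambdoid interparietal OF at E18.5 (0.8747) and lambdoid SM at E18.5 (0.8081). Ndn did so in lambdoid parietal OF (0.7493) and lambdoid SM (0.8276) at E18.5.

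Effects differed between groups in tests of the difference itself, by edgeR's adjusted p. The age change of Cdkn1c differed between OF and SM (adjusted p = 0.0146). The SM less OF difference differed among sutures for Cdkn1c (adjusted p = 1.51e-07), Dlk1 (adjusted p = 4.07e-07) and Meg3 (adjusted p = 0.0013). The age change differed among sutures for Peg3 (adjusted p = 1.14e-06), Grb10 (adjusted p = 2.05e-06), Mest (adjusted p = 9.79e-06), Plagl1 (adjusted p = 6.4e-05), Cdkn1c (adjusted p = 0.000633), Dlk1 (adjusted p = 0.0044), Meg3 (adjusted p = 0.0133), H19 (adjusted p = 0.0164) and Gnas (adjusted p = 0.0276). Fewer members were called in this last test with the second coronal libraries, as counted below.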

How the results depend on the processing

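Of 556 values of single members under the alternatives, 482 kept their direction and side of the threshold, 39 lost the threshold, 8 gained it and 27 changed sign, and no SM less OF mean over sutures changed sign. These count a left-out suture only for members called over all 4. Over all 160 values with a suture left out, 121 kept direction and side, 14 calls were lost, 4 were gained and 21 values changed sign, none of them called before or after. With the fixed replicate block, 10 members were called higher in SM, 10858 genes were called in all, and the difference of Dlk1 was 1.34, and the fixed block changed no call of the mean regional difference. H19 between regions lost its call with the second coronal libraries (0.15, adjusted p = 0.0605). Median-ratio scaling moved the median of all genes by 0.12 in the lambdoid SM less OF contrasts. Age comparisons were less stable. In SM, 1 member was called higher with no low-count filter, 0 to 3 without 1 replicate, and 1 lower with DESeq2, limma voom or the random replicate block, while 1375 to 2101 genes were called without 1 replicate (2187 with all). In OF, 2 members were called higher with the litter block and 2 to 4 without 1 replicate, and 1 lower with the second coronal libraries. The interaction called 139 genes, but 249 with DESeq2, 67 with limma voom, 54 with the second coronal libraries, 69 with the litter block and 51 to 85 without 1 replicate, and its members lower were 0 with the second coronal libraries and 0 to 1 without 1 replicate. With the second coronal libraries 7 member calls by suture and region (17 with the first) and 4 members among sutures (9 with the first) were counted, and of the 7, 1 was outside the coronal suture. The share of all genes called in these tests with the second libraries was not counted, and the cause of the lower counts was not tested.

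The age change of Mest in OF was 0.0213 with median-ratio scaling, 0.0214 with DESeq2, 0.0304 with the second coronal libraries and 0.05, 0.0278 and 0.0595 without replicates 1, 2 and 4 (-0.1188 to 0.0595 without 1 replicate). That of Dlk1 in SM was -0.2332 with the second coronal libraries and -0.0203, -0.0443 and -0.0190 without replicates 1, 3 and 4 (up to 0.1561), and that of Cdkn1c in SM was 0.0199 without replicate 5 (down to -0.0572). That of Ndn was -0.1399 and -0.0123 in SM without replicates 2 and 3 (up to 0.1799), and in OF -0.0011 and -0.0326 without replicates 3 and 5 (up to 0.0933) and -0.0645 with the second coronal libraries. The interaction was -0.0353 for Peg3 and -0.0153 for Plagl1 without replicate 5 (up to 0.0699 and 0.3189) and 0.0404 for Gnas without replicate 3 (down to -0.1714). For Ndn it was 0.0051 with median-ratio scaling, 0.0062 with DESeq2, 0.0957 with limma voom, 0.0963 and 0.0982 with the replicate and litter blocks, and 0.1978, 0.0112 and 0.0277 without replicates 2, 3 and 4 (down to -0.117). The Gnas log2 ratio of osteoblast-like to other cells at E16.5 was 0.0281 without library 1 and -0.1447 without library 2. Low counts limit Dlk1 in the coronal suture, Ndn and Gnas, whose lowest libraries held 4, 18 and 179 counts.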

Other observations

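Complete sutures at E18.5, captured without separating SM from OF, gave values that no comparison above uses. There were 16 libraries, 1 for each of 4 sutures in each of 4 control sets. The labels call each a normalization control, replicate 1, with sample codes that repeat across the sets and no embryo named. The control sets thus cannot be taken as independent samples. Dlk1 held 10.1 to 17.6 CPM in the coronal suture and 40.8 to 82.7 CPM in the other sutures. Meg3 held 167 to 285 CPM in the coronal suture. All members but H19 were lowest in the coronal suture in every control set, but the share of all genes with this order was not counted. The captured first libraries at E18.5 did not all keep this order. Plagl1 spanned 587 to 853 CPM in coronal SM and 166 to 242 CPM in sagittal SM. Mest (1125 to 1730 against 515 to 635 CPM) and Peg3 (2765 to 3021 against 2090 to 2383 CPM) were also higher in coronal SM. Dlk1 and Meg3 were lower there, and Cdkn1c, Gnas, Grb10 and Ndn overlapped. Some margins were slight. Plagl1 was at 251.9 CPM in coronal against 259.4 CPM in sagittal in set S. Ndn was at 27.1 against 28.4 CPM in lambdoid in set C, and Grb10 at 1272 against 1299 CPM in lambdoid in set IF. H19 moved with the control set instead, from 3126 to 4141 CPM in one to 6252 to 9250 CPM in another.

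The second coronal libraries came from the same embryos and regions as 18 of the first. Their log2 ratio to the first ran from 0.41 to 1.35 for H19 (median 0.80) and from -1.49 to -0.61 for Mest (median -0.97), so every second library lay above its first for H19 and below it for Mest. For Plagl1 it ran from -2.65 to -0.22 and for Peg3 from -1.34 to -0.40. Dlk1 ran from -1.61 to 4.83 (median 0.86).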
